A study of Mus musculus with 16 samples.

Results

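The genes described here are 42 genes of mitosis, the stage of the cell cycle in which a cell separates its copied chromosomes and divides. They were chosen by gene symbol: a gene was measured where a probe set of the array was annotated with that gene symbol alone, and of several such probe sets the brightest on average was taken. This gave 40 of the 42 genes, out of 22180 genes that could be measured so. Ccnb1 had no probe set annotated with its symbol, and Ncapg was named only on a probe set that also names Lcorl, so neither was analysed here.

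The RNA came from CD8 T cells, the lymphocytes that kill infected or transformed cells, sorted from the spleens of female C57BL/6 mice. All mice carried transferred leukemia cells from Eµ-TCL1 mice, which develop a disease like human chronic lymphocytic leukemia (CLL) because a TCL1 transgene is driven in their B cells, and all spleens were taken 6 weeks after the transfer. No leukemia-free mice are among the samples, so every subset comes from a leukemic spleen. The cells were gated as TCR beta positive, CD8 positive and negative for other lineages, and were then divided into 4 subsets with 4 arrays each. PD-1hi effector cells had low CD127, intermediate to high CD44 and high PD-1. PD-1int effector cells had the same CD127 and CD44 gates and intermediate PD-1. Memory cells were high for both CD127 and CD44, and naive cells high for CD127 but low for CD44. CD127 is the interleukin 7 receptor chain, CD44 an adhesion receptor that marks antigen-experienced T cells, and PD-1 an inhibitory receptor. The labels do not say whether the arrays of a subset come from separate mice or how many mice were pooled. The titles of each subset number the arrays AT1 to AT4 without saying what that marks, so p-values here reflect the spread between arrays, which may be technical.

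A cell enters mitosis when Cdk1, bound to cyclin A or cyclin B, is freed of its inhibitory phosphates, and leaves it when the anaphase-promoting complex marks those cyclins for destruction. In between, motor proteins build the spindle, kinetochores attach chromosomes to it, checkpoint kinases delay separation until every chromosome is attached, and a contractile ring divides the cell. Most of these genes are transcribed late in the cell cycle, when the DREAM complex that silences them in resting cells is replaced by complexes with MYBL2 and FOXM1. Naive and resting memory T cells divide rarely, while T cells that have just met antigen divide often, and transcripts of these genes are widely used as a sign of division.

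All values are log2 expression as the authors deposited it, so a difference of 1 is a 2-fold change. Array medians ranged over 6.39 to 6.49, and no arrays were identical. Of the genes of the gates, Pdcd1, which encodes PD-1, lay between 11.18 and 11.52 in PD-1hi, 9.75 and 10.42 in PD-1int, 7.02 and 7.23 in memory, and 6.52 and 7.11 in naive arrays. The 2 effector subsets also differed in the genes of the gates they share. Il7r, which encodes CD127, lay between 4.48 and 5.67 in PD-1hi and 7.14 and 7.91 in PD-1int. Cd44 lay between 7.85 and 8.10 in PD-1hi and 8.45 and 8.91 in PD-1int. The mean of 6 CD8 T-cell genes lay between 12.21 and 12.44 in all 16 arrays. The values of different probe sets are not comparable as levels, so genes are compared here through their differences between subsets.

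The mitosis genes formed a staircase over the 4 subsets, highest in PD-1hi, then PD-1int, then memory, and lowest in naive. This order of the means held for 37 of the 40 genes, and 39 had their highest mean in PD-1hi. The exceptions were Ndc80 and Cenpa, both lower on average in memory than in naive cells, and Racgap1, whose PD-1int and PD-1hi means were nearly equal. For 21 genes the arrays of neighbouring subsets did not overlap at any of the 3 steps, as for 0.672% of all genes. In a bulk sample, fewer dividing cells and less RNA per dividing cell cannot be told apart.

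The steps against naive were tested with limma in a fit of all 16 arrays, with Benjamini-Hochberg adjustment over all 22180 genes, and a gene is said to rise or fall where its adjusted p was under 0.05. In PD-1hi all 40 measured mitosis genes rose, where 13.4% of all genes rose, and their median difference was 3.06, against -0.01 over all genes. In PD-1int all 40 rose as well, where 11.9% of all genes did, with a median of 2.31 against -0.03. In memory 33 rose, where 6.7% of all genes did, with a median of 1.15 against -0.02. None fell, where 13.7%, 10.8% and 5.02% of all genes fell in PD-1hi, PD-1int and memory. These comparisons share the naive arrays.

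**Figure D1:**
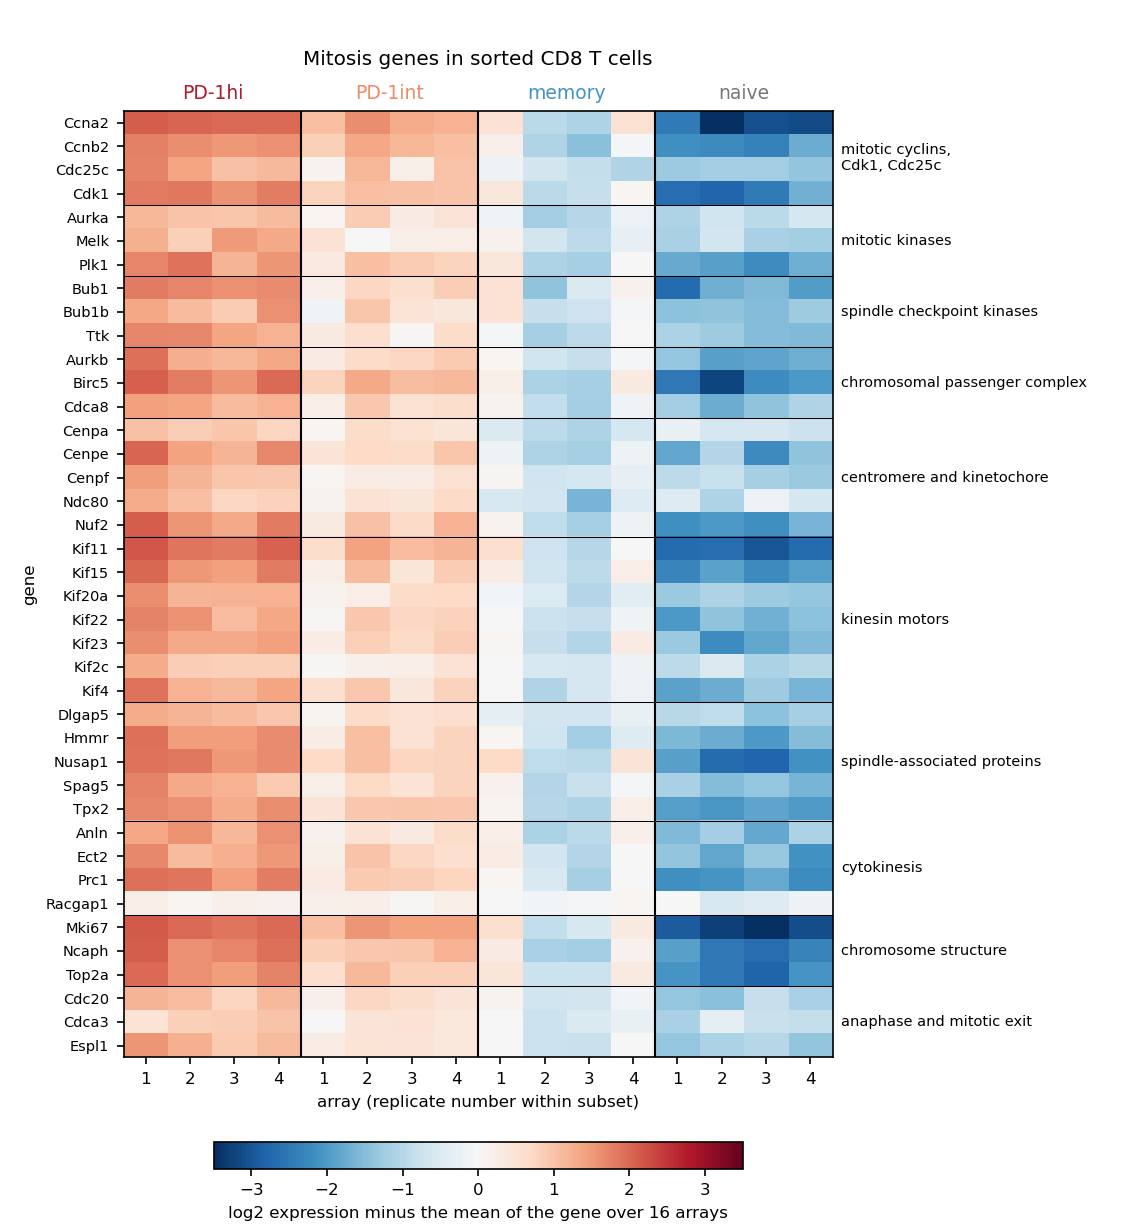
The 40 measured mitosis genes (rows, by role) in the 16 arrays (columns, by subset), as log2 expression minus the mean of the gene over all arrays. Red is above and blue below that mean; nearly every row is blue in naive and red in PD-1hi arrays, while memory replicates 1 and 4 are paler than the bluer replicates 2 and 3, and Racgap1 is pale throughout.

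The promoters of these genes were searched for motifs of late cell-cycle genes. Late cell-cycle promoters are known for a motif called the cell-cycle genes homology region (CHR), bound by DREAM and its successor complexes, and for CCAAT boxes, bound by the factor NF-Y. RefSeq promoters (mouse build GRCm38.p6; 250 bases before the start of transcription and 50 from it on; the first listed start of a gene) were matched by symbol for 34 of the 40 genes. Aurkb, Ccna2, Cdc25c, Dlgap5, Kif20a and Tpx2 had no entry. The motif TTTGAA or TTCGAA, searched on both strands as the letters of the CHR, was found in 28 of 34 promoters (82.4%), against 19.4% of all 27025 promoters of this length. CCAAT, on both strands, was found in 25 of 34 (73.5%), against 37.9% of all, and at least 2 copies in 17 of 34, against 12.2% of all. Both motifs were present in 24 (70.6%), against 7.7%, and a single pair of matches overlapped.

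The same letters were counted in related lists and for a different motif. Of 57 promoters of other mitosis genes, 35 held a CHR motif (61.4%) and 37 a CCAAT (64.9%). Of 39 promoters of DNA replication genes, which are transcribed earlier in the cycle, 8 held a CHR motif (20.5%), near the share of all promoters, while 23 held a CCAAT (59.0%). The TATA motif TATAAA was in 1 of 34 mitosis promoters (2.94%), against 14.2% of all. The CHR matches of the mitosis genes lay close to the start, with a median position of -2.5 bases, against -122.5 in all promoters. Their CCAAT matches lay further upstream, with a median of -54.5, against -89.0. A match describes letters in this window and is not evidence of a bound site.

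**Figure D2:**
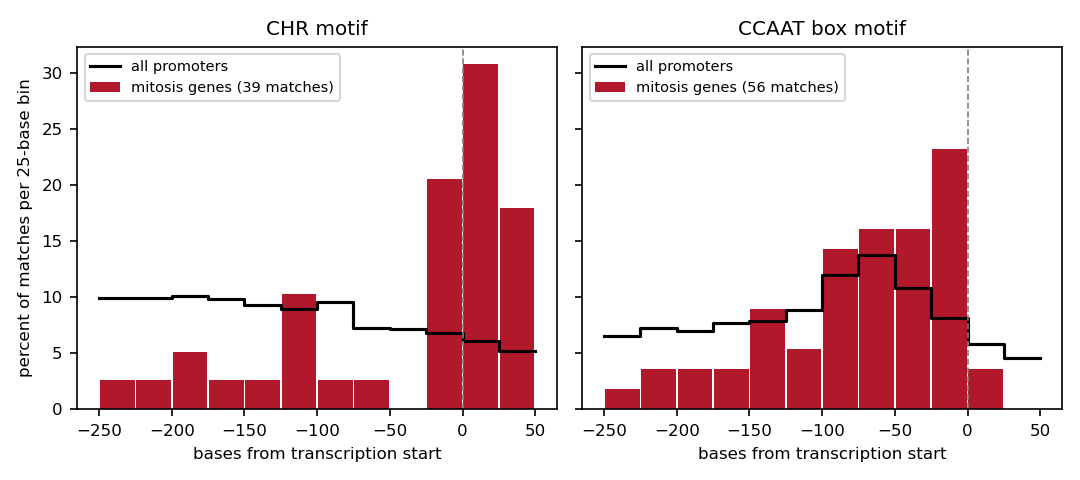
Position of the CHR motif (left, 39 matches) and of the CCAAT motif (right, 56 matches) in the promoters of 34 mitosis genes, in bases from the start of transcription, as the percent of matches in each 25-base bin; the black line gives the same for all 27025 promoters. Bars for the CHR motif pile up around the start, and those for CCAAT upstream of it.

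The promoters of 6 genes are shown for the genes that the results below turn on, with both motifs in capitals (ATTGG and TTCAAA are CCAAT and TTTGAA on the other strand). Cenpf (chr1:189688037-189688336, minus strand), Melk (chr4:44300667-44300966, plus strand) and Ttk (chr9:83834439-83834738, plus strand) belong to the genes that rose in PD-1hi against PD-1int. Cenpa (chr5:30666636-30666935, plus strand), Ndc80 (chr17:71526808-71527107, minus strand) and Racgap1 (chr15:99651607-99651906, minus strand) are the genes outside the common order. All are written 5′ to 3′ on the strand of the gene.
Cenpf: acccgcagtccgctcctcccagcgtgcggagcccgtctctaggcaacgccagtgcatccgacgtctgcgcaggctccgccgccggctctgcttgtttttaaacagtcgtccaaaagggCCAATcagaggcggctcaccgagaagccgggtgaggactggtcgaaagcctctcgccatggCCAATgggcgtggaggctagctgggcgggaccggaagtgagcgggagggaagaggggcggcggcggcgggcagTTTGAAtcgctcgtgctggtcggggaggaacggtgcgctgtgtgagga
Melk: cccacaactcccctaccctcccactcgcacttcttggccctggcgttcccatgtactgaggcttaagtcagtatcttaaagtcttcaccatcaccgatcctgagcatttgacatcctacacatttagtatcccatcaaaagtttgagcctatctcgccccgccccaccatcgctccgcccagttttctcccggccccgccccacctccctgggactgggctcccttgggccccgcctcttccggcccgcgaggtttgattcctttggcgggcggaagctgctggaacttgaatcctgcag
Ttk: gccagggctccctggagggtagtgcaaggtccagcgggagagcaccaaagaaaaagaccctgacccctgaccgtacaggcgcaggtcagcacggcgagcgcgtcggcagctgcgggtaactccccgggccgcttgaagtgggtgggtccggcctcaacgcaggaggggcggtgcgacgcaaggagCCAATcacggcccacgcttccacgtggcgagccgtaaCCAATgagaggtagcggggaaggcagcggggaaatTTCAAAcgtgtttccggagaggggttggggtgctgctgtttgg
Cenpa: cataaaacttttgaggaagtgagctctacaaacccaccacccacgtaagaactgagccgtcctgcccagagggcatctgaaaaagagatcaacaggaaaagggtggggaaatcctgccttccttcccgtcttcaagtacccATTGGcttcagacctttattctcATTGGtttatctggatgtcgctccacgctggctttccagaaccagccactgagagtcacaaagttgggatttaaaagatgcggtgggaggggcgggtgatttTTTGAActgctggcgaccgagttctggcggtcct
Ndc80: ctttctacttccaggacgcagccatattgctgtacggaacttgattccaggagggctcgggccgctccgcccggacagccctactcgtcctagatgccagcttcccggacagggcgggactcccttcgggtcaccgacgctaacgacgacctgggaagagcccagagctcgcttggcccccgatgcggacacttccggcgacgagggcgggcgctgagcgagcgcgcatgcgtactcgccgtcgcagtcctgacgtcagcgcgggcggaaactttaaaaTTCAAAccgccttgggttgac
Racgap1: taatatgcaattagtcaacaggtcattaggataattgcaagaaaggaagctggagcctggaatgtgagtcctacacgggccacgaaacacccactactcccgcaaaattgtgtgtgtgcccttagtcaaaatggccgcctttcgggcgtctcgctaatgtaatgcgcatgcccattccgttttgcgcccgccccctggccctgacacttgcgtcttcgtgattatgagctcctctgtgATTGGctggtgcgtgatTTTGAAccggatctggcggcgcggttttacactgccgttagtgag
Cenpf, Ttk and Cenpa each hold 1 CHR motif next to the start and a pair of CCAAT boxes upstream of it. Racgap1 holds 1 of each, Ndc80 a CHR motif without CCAAT, and Melk neither. The 3 genes outside the common order all hold a CHR motif, as do 28 of the 34 promoters searched. A link between the motif and the order of the subsets was not tested.

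Among the cyclins and the enzymes that switch Cdk1 on, cyclin A2 had the largest differences against naive. Ccna2, the cyclin that carries cells through DNA replication and into mitosis, had log2 values of 10.60, 10.52, 10.47 and 10.46 in PD-1hi, 9.53, 10.13, 9.78 and 9.70 in PD-1int, 8.99, 7.54, 7.40 and 9.02 in memory, against 6.02, 4.88, 5.41 and 5.36 in naive. No arrays of neighbouring subsets overlapped, and memory replicates 2 and 3 lay more than 1 unit under replicates 1 and 4. Against naive its differences were 5.09 ± 0.31 in PD-1hi, 4.37 ± 0.31 in PD-1int and 2.82 ± 0.31 in memory (± SE of the fit), the first a 34.2-fold rise. Cdk1, the kinase that drives mitotic entry, had 10.38, 10.41, 10.14 and 10.36 in PD-1hi, 9.35, 9.61, 9.59 and 9.57 in PD-1int, 8.96, 7.62, 7.74 and 8.63 in memory, against 5.90, 5.79, 6.09 and 6.87 in naive. It rose against naive by 4.16 ± 0.25 in PD-1hi, 3.37 ± 0.25 in PD-1int and 2.08 ± 0.25 in memory, again without overlap at any step. Ccnb2, cyclin B2, had 10.76, 10.64, 10.52 and 10.59 in PD-1hi, 9.84, 10.36, 10.18 and 10.05 in PD-1int, 9.17, 7.95, 7.54 and 8.96 in memory, against 6.85, 6.77, 6.64 and 7.26 in naive. Its step between PD-1int and memory was the largest of all 40 genes, 1.70 ± 0.26 (limma adjusted p = 1.34e-04), and its step between PD-1hi and PD-1int one of the smaller ones, 0.52 ± 0.26 (adjusted p = 0.384). Cdc25c, the phosphatase that frees Cdk1 of its inhibitory phosphates, had 8.34, 8.01, 7.65 and 7.76 in PD-1hi, 6.74, 7.78, 6.83 and 7.62 in PD-1int, 6.45, 5.97, 5.79 and 5.56 in memory, against 5.35, 5.42, 5.40 and 5.23 in naive. Its naive arrays lay close together, and its memory arrays all lay above them, but the difference of 0.59 ± 0.22 did not pass (limma adjusted p = 0.101). Against naive it rose in PD-1hi by 2.59 ± 0.22 and in PD-1int by 1.89 ± 0.22.

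Of the 3 mitotic kinases, all rose in PD-1hi and PD-1int against naive, and Plk1 also in memory. Plk1, polo-like kinase 1, which acts at centrosomes, kinetochores and the cleavage site, had 10.91, 11.11, 10.39 and 10.76 in PD-1hi, 9.55, 10.24, 10.08 and 9.98 in PD-1int, 9.60, 8.12, 8.05 and 9.19 in memory, against 7.43, 7.30, 6.99 and 7.49 in naive. It rose in all 3 subsets against naive, by 3.49 ± 0.27 in PD-1hi, 2.66 ± 0.27 in PD-1int and 1.44 ± 0.27 in memory, and its highest memory array lay above the lowest PD-1int array. Aurka, Aurora kinase A, which matures centrosomes and helps build the spindle, had 9.04, 8.87, 8.84 and 8.98 in PD-1hi, 7.94, 8.77, 8.17 and 8.33 in PD-1int, 7.72, 6.70, 6.89 and 7.67 in memory, against 6.81, 7.17, 6.95 and 7.26 in naive. PD-1hi and PD-1int were each clear of the subset below, while memory and naive arrays overlapped and differed by 0.20 ± 0.21 (limma adjusted p = 0.664). Melk, a kinase of proliferating and embryonic cells, had 8.28, 7.87, 8.53 and 8.38 in PD-1hi, 7.54, 7.04, 7.24 and 7.28 in PD-1int, 7.19, 6.41, 6.12 and 6.75 in memory, against 5.92, 6.40, 5.91 and 5.85 in naive. Its memory arrays overlapped those of naive cells, one of which stood high, and the difference of 0.60 ± 0.19 missed the threshold (adjusted p = 0.0546), while in PD-1hi Melk rose by 2.25 ± 0.19 and in PD-1int by 1.26 ± 0.19.

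The kinases of the spindle checkpoint, which hold back anaphase until all chromosomes are attached, rose in all 3 subsets against naive. Ttk, also known as Mps1, which recruits the checkpoint to kinetochores, had 9.14, 9.12, 8.80 and 8.64 in PD-1hi, 7.75, 8.01, 7.47 and 8.07 in PD-1int, 7.35, 6.27, 6.52 and 7.41 in memory, against 6.33, 6.19, 5.91 and 5.88 in naive. PD-1hi, PD-1int and memory did not overlap, and 1 memory array fell below the highest naive array. Ttk had the largest difference between PD-1hi and PD-1int of the 40 genes, 1.10 ± 0.22 (limma adjusted p = 0.008). Bub1 had 9.24, 9.11, 9.01 and 9.06 in PD-1hi, 7.64, 8.14, 7.98 and 8.27 in PD-1int, 7.90, 6.00, 6.92 and 7.55 in memory, against 4.72, 5.69, 5.86 and 5.47 in naive. Its difference between the PD-1 subsets was nearly as large, 1.10 ± 0.30, but the spread of its memory and naive arrays was wide and it did not pass (adjusted p = 0.0585). Bub1b, which encodes BubR1, an inhibitor of Cdc20, had 8.69, 8.46, 8.24 and 8.96 in PD-1hi, 7.22, 8.32, 7.83 and 7.75 in PD-1int, 7.87, 6.55, 6.64 and 7.32 in memory, against 5.91, 5.93, 5.84 and 6.12 in naive. It was the checkpoint gene with overlap at 2 steps, and neither PD-1hi against PD-1int (adjusted p = 0.0991) nor PD-1int against memory (adjusted p = 0.0775) passed.

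The chromosomal passenger complex, which corrects faulty attachments and later guides cytokinesis, had all 3 of its genes higher in each subset against naive. Aurkb, its kinase Aurora B, had 11.03, 10.37, 10.27 and 10.46 in PD-1hi, 9.40, 9.76, 9.83 and 10.01 in PD-1int, 9.18, 8.41, 8.30 and 9.06 in memory, against 7.76, 7.21, 7.25 and 7.38 in naive. Birc5, its subunit survivin, had 10.48, 10.18, 9.95 and 10.37 in PD-1hi, 9.18, 9.73, 9.48 and 9.53 in PD-1int, 8.60, 7.28, 7.22 and 8.70 in memory, against 5.89, 5.18, 6.19 and 6.39 in naive. Neither gene showed overlap between neighbouring subsets, and Birc5 rose 20.2-fold in PD-1hi against naive, with differences of 4.33 ± 0.31 in PD-1hi, 3.57 ± 0.31 in PD-1int and 2.04 ± 0.31 in memory. Cdca8, its subunit borealin, had means of 9.53 ± 0.15 in PD-1hi, 8.82 ± 0.29 in PD-1int, 7.73 ± 0.61 in memory and 6.88 ± 0.28 in naive cells (SD, n = 4 each), with memory replicate 3 inside the naive range.

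Centromere and kinetochore genes held the 2 genes with a lower mean in memory than in naive cells. Cenpa, the histone H3 variant that marks centromeres, had 10.18, 10.01, 10.10 and 9.91 in PD-1hi, 9.21, 9.79, 9.69 and 9.58 in PD-1int, 8.65, 8.23, 8.07 and 8.52 in memory, against 8.89, 8.52, 8.54 and 8.40 in naive. PD-1hi arrays lay above all PD-1int arrays and these above all others, while memory and naive overlapped, with a difference of -0.22 ± 0.14 (limma adjusted p = 0.411). Cenpa had the smallest adjusted p of the 40 genes for PD-1int against memory (1.20 ± 0.14, adjusted p = 8.07e-06) and for PD-1hi against memory (1.68 ± 0.14, adjusted p = 6.86e-08). Ndc80, a subunit of the complex that grips microtubules, had 10.22, 9.98, 9.64 and 9.72 in PD-1hi, 9.04, 9.43, 9.33 and 9.58 in PD-1int, 8.36, 8.25, 7.28 and 8.46 in memory, against 8.46, 7.84, 8.72 and 8.28 in naive. Memory replicate 3 stood about 1 unit below the other memory arrays, and the difference of -0.24 ± 0.23 (adjusted p = 0.633) was 0.03 without that array. Nuf2, the partner of Ndc80 in the same complex, did rise in memory, by 1.46 ± 0.25, and rose 12.8-fold in PD-1hi against naive, where Ndc80 rose 2.96-fold.

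Cenpe, a kinetochore motor that carries chromosomes to the spindle equator, had 10.09, 9.44, 9.22 and 9.72 in PD-1hi, 8.51, 8.75, 8.68 and 9.03 in PD-1int, 7.88, 6.98, 6.88 and 7.88 in memory, against 6.23, 7.01, 5.83 and 6.63 in naive. The effector subsets were separate from each other and from memory, and memory replicates 2 and 3 lay among the naive arrays. Cenpf, a large kinetochore protein of late cell-cycle cells, had 8.59, 8.32, 8.11 and 8.08 in PD-1hi, 7.21, 7.38, 7.38 and 7.66 in PD-1int, 7.23, 6.43, 6.51 and 6.86 in memory, against 6.22, 6.36, 5.96 and 5.83 in naive. Its PD-1hi arrays lay clear of PD-1int, where it had a difference of 0.87 ± 0.17 (limma adjusted p = 0.00608), and memory replicate 1 just reached the PD-1int range.

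All 7 kinesins, the motor proteins that move along or take apart microtubules, rose in each subset against naive. Kif11, which pushes spindle poles apart, had 10.77, 10.49, 10.43 and 10.67 in PD-1hi, 9.22, 10.01, 9.69 and 9.79 in PD-1int, 9.20, 7.88, 7.61 and 8.60 in memory, against 5.92, 5.93, 5.61 and 5.92 in naive. It rose by 4.74 ± 0.25 in PD-1hi, 3.83 ± 0.25 in PD-1int and 2.47 ± 0.25 in memory, the first a 26.8-fold change, and no neighbouring subsets overlapped. Kif20a, which works at the central spindle in cytokinesis, had 9.26, 8.83, 8.85 and 8.86 in PD-1hi, 7.76, 7.88, 8.26 and 8.35 in PD-1int, 7.53, 7.16, 6.62 and 7.25 in memory, against 6.33, 6.55, 6.39 and 6.28 in naive. PD-1hi replicate 1 stood above its group, and all PD-1hi arrays lay above all PD-1int arrays, with the smallest adjusted p of the 40 genes for that comparison (0.89 ± 0.17, limma adjusted p = 0.00504). Kif15, a motor that can stand in for Kif11, rose by 3.78 ± 0.25 in PD-1hi, 2.75 ± 0.25 in PD-1int and 1.81 ± 0.25 in memory. Kif23, a subunit of centralspindlin, rose by 3.14 ± 0.24 in PD-1hi, 2.37 ± 0.24 in PD-1int and 1.34 ± 0.24 in memory. Both had memory arrays that reached into the PD-1int range. Kif22 and Kif4, which bind chromosome arms, rose in PD-1hi by 3.07 ± 0.21 and 3.03 ± 0.20, in PD-1int by 2.25 ± 0.21 and 2.31 ± 0.20 and in memory by 1.20 ± 0.21 and 1.16 ± 0.20. Kif2c, which takes microtubules apart at centromeres, had the smallest changes of the 7, with 1.83 ± 0.16 in PD-1hi, 1.11 ± 0.16 in PD-1int and 0.54 ± 0.16 in memory.

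The 5 spindle-associated genes rose in all 3 subsets against naive too. Tpx2, which activates Aurora kinase A on the spindle, had 9.95, 9.85, 9.55 and 9.88 in PD-1hi, 8.71, 9.21, 9.24 and 9.20 in PD-1int, 8.36, 7.26, 7.17 and 8.49 in memory, against 6.34, 6.24, 6.42 and 6.29 in naive. Dlgap5, which stabilises kinetochore fibres, had 9.77, 9.65, 9.56 and 9.42 in PD-1hi, 8.55, 9.11, 8.98 and 9.07 in PD-1int, 8.12, 7.83, 7.79 and 8.21 in memory, against 7.50, 7.57, 7.04 and 7.31 in naive. In both, no arrays of neighbouring subsets overlapped, and the steps of Dlgap5, 0.67 ± 0.14 for PD-1hi against PD-1int and 0.94 ± 0.14 for PD-1int against memory, both passed (limma adjusted p = 0.00998 and 9.13e-05). Nusap1, a microtubule-binding protein of the spindle, had the largest rise of this group against naive, 4.10 ± 0.30 in PD-1hi, 3.20 ± 0.30 in PD-1int and 2.21 ± 0.30 in memory. Hmmr, a spindle protein also known as a hyaluronan receptor, rose by 3.34 ± 0.21 in PD-1hi, 2.36 ± 0.21 in PD-1int and 1.14 ± 0.21 in memory, and Spag5, or astrin, by 2.71 ± 0.23 in PD-1hi, 1.95 ± 0.23 in PD-1int and 0.99 ± 0.23 in memory.

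Cytokinesis genes included both a gene with one of the clearest steps and the gene that moved least. Prc1, which bundles the microtubules of the central spindle, had 10.22, 10.19, 9.74 and 10.09 in PD-1hi, 8.58, 9.22, 9.15 and 9.05 in PD-1int, 8.36, 7.78, 7.14 and 8.29 in memory, against 6.15, 6.24, 6.53 and 6.10 in naive. The 4 subsets were fully separate, and it rose by 3.80 ± 0.21 in PD-1hi, 2.74 ± 0.21 in PD-1int and 1.64 ± 0.21 in memory. Anln, or anillin, a scaffold of the contractile ring, had 8.83, 9.05, 8.63 and 9.08 in PD-1hi, 7.63, 7.97, 7.79 and 8.11 in PD-1int, 7.71, 6.37, 6.55 and 7.66 in memory, against 5.93, 6.29, 5.70 and 6.38 in naive. Memory replicates 1 and 4 lay at the lower end of the PD-1int range, replicates 2 and 3 near naive, and PD-1hi above all others. Ect2, which activates RhoA at the cleavage site, rose by 3.06 ± 0.25 in PD-1hi, 2.30 ± 0.25 in PD-1int and 1.31 ± 0.25 in memory. Racgap1, the partner of Kif23 in centralspindlin, had 11.06, 10.90, 11.03 and 11.00 in PD-1hi, 11.03, 11.06, 10.88 and 11.07 in PD-1int, 10.83, 10.74, 10.78 and 10.90 in memory, against 10.84, 10.27, 10.39 and 10.66 in naive. Its means lay between 10.54 in naive and 11.01 in PD-1int cells. It rose in PD-1hi and PD-1int against naive, by 0.46 ± 0.10 and 0.47 ± 0.10, a 1.37-fold and 1.38-fold change, and passed in none of the other 4 comparisons.

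The genes of chromosome structure include the one with the largest rise. Mki67, which encodes Ki-67, the protein that coats mitotic chromosomes and is a standard stain for cycling cells, had 12.24, 12.07, 11.98 and 12.08 in PD-1hi, 11.16, 11.63, 11.50 and 11.51 in PD-1int, 10.67, 9.25, 9.52 and 10.42 in memory, against 7.19, 6.83, 6.52 and 6.98 in naive. Its rise in PD-1hi against naive, 5.22 ± 0.24 or 37.2-fold, was the largest of the 40 genes, and it was 23.8-fold in PD-1int and 8.5-fold in memory. Against this, the PD-1hi and PD-1int means lay 0.64 ± 0.24 apart (limma adjusted p = 0.183). Top2a, the topoisomerase that untangles sister chromatids, rose by 4.05 ± 0.24 in PD-1hi, 3.20 ± 0.24 in PD-1int and 2.16 ± 0.24 in memory, and Ncaph, a condensin subunit that compacts chromosomes, by 4.18 ± 0.27 in PD-1hi, 3.34 ± 0.27 in PD-1int and 1.87 ± 0.27 in memory. In all 3 genes no neighbouring subsets overlapped.

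All 3 genes of anaphase and mitotic exit rose in PD-1hi and in PD-1int against naive. Cdc20, which activates the anaphase-promoting complex, had 10.09, 9.99, 9.64 and 10.03 in PD-1hi, 9.07, 9.64, 9.51 and 9.37 in PD-1int, 9.02, 8.20, 8.26 and 8.81 in memory, against 7.55, 7.45, 8.09 and 7.77 in naive. Espl1, or separase, the protease that cuts the cohesin between sister chromatids, had 9.65, 9.36, 9.02 and 9.21 in PD-1hi, 8.37, 8.59, 8.57 and 8.48 in PD-1int, 8.14, 7.37, 7.34 and 8.14 in memory, against 6.75 to 7.11 in naive. Both were free of overlap between neighbouring subsets, and in PD-1hi against naive they rose by 2.22 ± 0.18 and 2.41 ± 0.18. Cdca3, a ubiquitin ligase adaptor that promotes mitotic entry, had 8.16, 8.52, 8.55 and 8.67 in PD-1hi, 7.70, 8.13, 8.18 and 8.04 in PD-1int, 7.69, 6.93, 7.17 and 7.42 in memory, against 6.55, 7.35, 6.90 and 6.84 in naive. Naive replicate 2 lay inside the memory range, and the difference between memory and naive, 0.39 ± 0.17, did not pass (limma adjusted p = 0.187). It was also among the 4 genes whose PD-1hi arrays overlapped PD-1int, since PD-1hi replicate 1 was low.

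**Figure D3:**
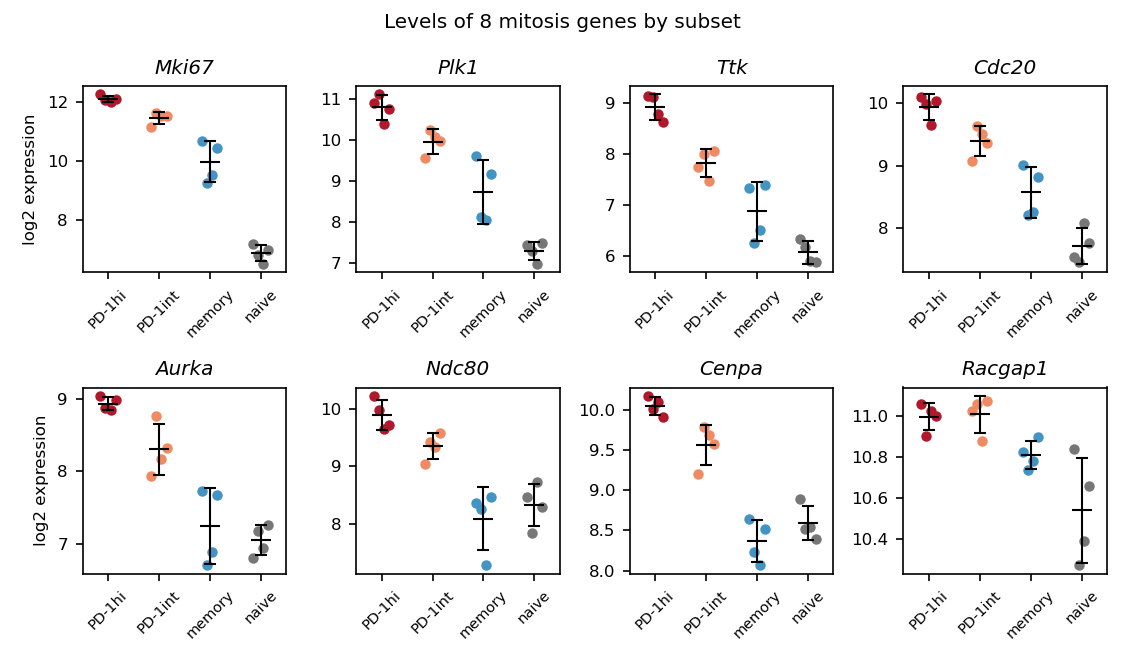
Log2 expression of 8 mitosis genes in each array (points) by subset, with the mean and SD of 4 arrays (black). Mki67, Plk1, Ttk and Cdc20 step down over the 4 subsets, Aurka, Ndc80 and Cenpa lie at a similar level in memory and naive cells, and Racgap1 spans less than 1 unit in all.

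Between PD-1hi and PD-1int cells 13 of the 40 mitosis genes rose, where 1.37% of all genes rose, and none fell, where 1.94% of all genes fell. The difference was positive for 39 of 40 genes, with a median of 0.79, or 1.73-fold, against 0.01 over all genes, and for 36 genes every PD-1hi array lay above every PD-1int array, as for 4.39% of all genes. The genes that rose were Kif20a (0.89 ± 0.17), Cenpf (0.87 ± 0.17), Melk (0.99 ± 0.19), Ttk (1.10 ± 0.22), Prc1 (1.06 ± 0.21), Dlgap5 (0.67 ± 0.14), Kif2c (0.72 ± 0.16), Hmmr (0.98 ± 0.21), Espl1 (0.80 ± 0.18), Kif15 (1.03 ± 0.25), Anln (1.02 ± 0.25), Kif22 (0.82 ± 0.21) and Aurkb (0.78 ± 0.20), with limma adjusted p between 0.00504 and 0.0415. By role these were 4 of 7 kinesins, 2 of 5 spindle-associated genes, 2 of 4 cytokinesis genes and 1 gene each of 5 further roles, and 0 of 4 cyclins and Cdk1 regulators and 0 of 3 genes of chromosome structure; in the fit of only the 8 arrays compared, 3 of 4 and 3 of 3 of these passed.

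Of the 27 genes that did not pass, Kif11 (0.91 ± 0.25, limma adjusted p = 0.055) and Bub1 were nearest to the threshold. Their differences lay between -0.01 ± 0.10 for Racgap1 (adjusted p = 0.981) and 1.10 ± 0.30 for Bub1, and a p above the threshold does not show that the subsets were alike. With an unadjusted p under 0.05 in either direction the count was 38 of the 40 genes, against 3145 of all 22180 genes. The standard error of the fit is shared by all 4 subsets: its median over the 40 genes was 0.227, and 0.139 in a fit of the 8 PD-1hi and PD-1int arrays alone. In that fit 29 of the 40 genes rose, 12 of them among the 13, where 1.31% of all genes rose.

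The count rested on single arrays: 6 genes passed without PD-1int replicate 1 and 7 without PD-1hi replicate 1. The share of all genes that rose in these fits is not given here. The counts therefore do not show whether the mitosis genes lost calls more than other genes. Without any 1 array, Kif20a, Cenpf, Melk, Ttk, Prc1 and Dlgap5 still rose. Other arrays ended calls as well: Aurkb lost the threshold without any 1 of 8 arrays and Kif22 without any 1 of 7, naive arrays among them. Leaving out PD-1int replicate 1 gave the highest adjusted p (limma) for Aurkb (0.147), Kif22 (0.145), Anln (0.104), Kif15 (0.0998), Hmmr (0.0577) and Kif2c (0.0525), and leaving out PD-1hi replicate 1 gave it for Espl1 (0.0564).

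**Figure D4:**
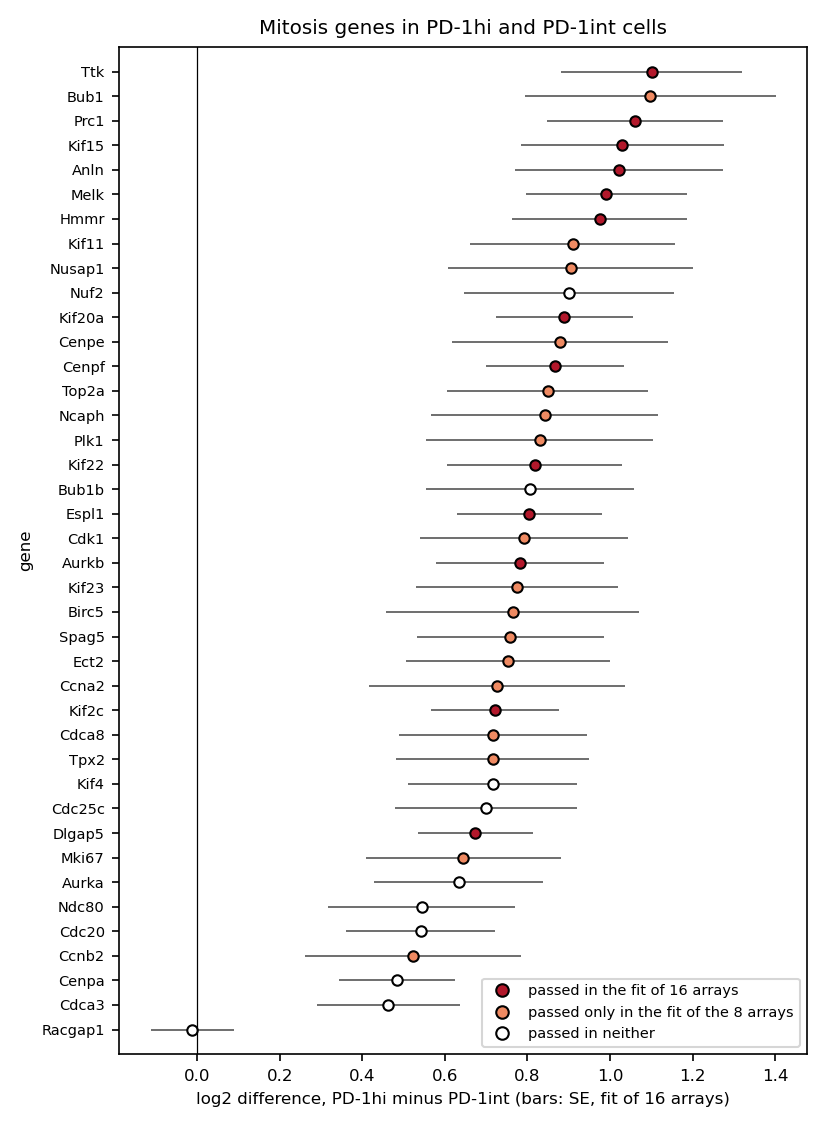
Log2 difference between PD-1hi and PD-1int cells for the 40 mitosis genes, sorted, with the standard error of the fit of 16 arrays. Dark points passed there (13 genes), light points passed only in the fit of the 8 arrays compared, and open points in neither; Racgap1 lies at zero and all others to the right.

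Memory cells stood between naive cells and the effector subsets, and set against naive cells they left 7 genes short of the threshold. Of the 40 genes 33 rose and none fell, and for 29 genes all memory arrays lay above all naive arrays, as for 8.42% of all genes. Mki67, Kif11 and Ccna2 had the smallest adjusted p (limma, 3.97e-08, 1.49e-06 and 4.52e-06). Melk, Cdc25c, Racgap1 (0.27 ± 0.10, adjusted p = 0.101), Cdca3, Cenpa, Ndc80 and Aurka did not pass. Kif2c, Ttk, Cdca8, Cenpe and Anln lost the threshold without 1 array. The highest adjusted p came without memory replicate 1 for Kif2c (0.111), Ttk (0.0824) and Cdca8 (0.0773), without naive replicate 3 for Cenpe (0.0745) and without memory replicate 4 for Anln (0.0544), and other memory and naive arrays ended these calls as well.

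Both effector subsets had more transcript of these genes than memory cells. In PD-1hi 39 of 40 genes rose against memory, where 10.8% of all genes rose, with a median of 1.87 against 0.01 over all genes, and all PD-1hi arrays lay above all memory arrays for all 40, as for 12% of all genes. Racgap1, with 0.19 ± 0.10, was the gene that did not pass (limma adjusted p = 0.245). In PD-1int 38 of 40 rose, where 8.49% of all genes rose, with a median of 1.04 against -0.00, and for 30 genes the arrays did not overlap, as for 10.9% of all genes. Bub1b (0.69 ± 0.25) and Racgap1 (0.20 ± 0.10, adjusted p = 0.249) did not pass. Bub1, Anln, Nusap1, Melk, Kif2c and Kif15 lost the threshold without 1 array. Their highest adjusted p came without memory replicate 2 for Bub1 (0.166) and Anln (0.138), without memory replicate 3 for Nusap1 (0.112), Melk (0.107) and Kif15 (0.0511), and without PD-1int replicate 4 for Kif2c (0.0606). Bub1 lost the threshold without any 1 of 11 arrays, and Kif15 without memory replicate 3 only. Bub1 also missed it with a replicate block, array weights, the eBayes trend and robust options, or the 8 arrays compared alone. Anln and Nusap1 missed it in the last of these fits too. In all, 12 genes rose at all 3 steps, PD-1hi against PD-1int, PD-1int against memory and memory against naive, as did 0.352% of all genes.

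The mitosis genes varied together between arrays of a subset most of all in memory cells, and little in naive cells. With each gene centred on its mean over the 16 arrays, the mean of the 40 genes was 1.63, 1.39, 1.24 and 1.41 in PD-1hi replicates 1 to 4, 0.35, 0.83, 0.63 and 0.76 in PD-1int, 0.13, -0.84, -0.91 and -0.06 in memory, and -1.60, -1.67, -1.71 and -1.58 in naive. The 4 subsets did not overlap on this mean, and memory spanned a wider range than any other. Memory replicates 1 and 4 were both above replicates 2 and 3 in 39 of the 40 genes, all but Cdc25c. Replicate 1 was above the memory mean for 40 genes, replicate 4 for 39, replicate 2 for 3 and replicate 3 for none, while of all genes 47.4%, 46.6%, 53.2% and 52.8% lay above it in these arrays.

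The SD of the array means was 0.163 in PD-1hi, 0.216 in PD-1int, 0.530 in memory and 0.0628 in naive. The median SD of a single mitosis gene was 0.223 in PD-1hi, 0.254 in PD-1int, 0.575 in memory and 0.257 in naive, against 0.135, 0.131, 0.123 and 0.143 for all genes in the same order, so memory arrays did not spread more over all genes. For 36 of the 40 genes memory was the subset with the largest SD. Within PD-1hi, replicate 1 held the highest value for 34 genes, and within PD-1int, replicate 1 held the lowest value for 36. These 2 arrays had 38 and 2 of the 40 genes above their subset mean, against 49.3% and 50.6% of all genes. In naive arrays no replicate stood apart, with 21, 16, 12 and 22 genes above the subset mean, against 48.2%, 52.6%, 48.0% and 50.2% of all genes.

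Taken over the deviations of the 16 arrays from their subset means, 770 of the 780 pairs of mitosis genes had a positive correlation, with a median of 0.67, and a single component held 70.0% of the variance. These arrays share labelling and scaling, and genes are not independent replicates, so this describes the arrays only. The memory arrays weigh most in it, as the median SD of a gene was 0.575 there and 0.223 to 0.257 in the other subsets. Correlations within single subsets are not given here, so co-variation in each subset cannot be read from these values. Of the genes of the memory gate, Il7r was 12.53, 12.60, 12.67 and 12.48 in memory replicates 1 to 4, and Cd44 was 9.13, 8.94, 8.84 and 9.06. These differences were small but split the arrays as the mitosis genes did. Replicates 1 and 4 had less Il7r and more Cd44 than replicates 2 and 3. The part of any difference in sorting between those arrays was not tested.

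**Figure D5:**
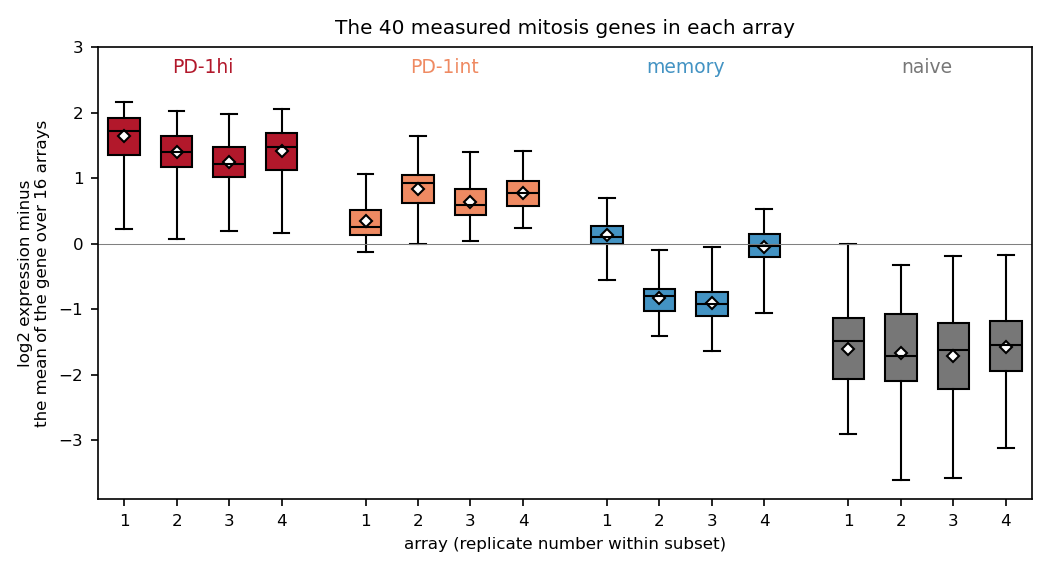
Distribution over the 40 mitosis genes of log2 expression minus the mean of the gene over 16 arrays, in each array: boxes give quartiles, whiskers the full range, lines the median and diamonds the mean. PD-1hi lies highest and naive lowest; memory replicates 1 and 4 lie about 1 unit above replicates 2 and 3.

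Related lists of the cell cycle were counted in the same way. Against naive, 13.4% of all genes rose and 13.7% fell in PD-1hi, 11.9% and 10.8% in PD-1int, and 6.7% and 5.02% in memory. Of 66 other measured mitosis genes, 63 rose and 1 fell in PD-1hi against naive, 58 rose and 2 fell in PD-1int, and 42 rose and 1 fell in memory. The gene that fell in all 3 was Smc4, a core subunit of condensin, with log2 values of 12.04, 11.86, 11.75 and 11.95 in PD-1hi, 11.37, 11.52, 11.45 and 11.52 in PD-1int, 11.90, 11.83, 11.79 and 11.80 in memory, against 12.33, 12.24, 12.29 and 12.17 in naive. Its naive arrays were the highest and its PD-1int arrays the lowest, without overlap, and its difference was -0.36 ± 0.07 in PD-1hi, -0.80 ± 0.07 in PD-1int and -0.43 ± 0.07 in memory, while Ncaph, which belongs to the same complex, rose in each. In PD-1hi against PD-1int 29 of the 66 rose and none fell, where 1.37% of all genes rose and 1.94% fell. The smallest adjusted p were those of Smc4 (0.44 ± 0.07), Cenpl (0.64 ± 0.12), a centromere protein, Gtse1 (0.83 ± 0.16) and Plk4 (0.87 ± 0.17), the kinase that starts centriole copying. The count of 29 was 8 without PD-1int replicate 1, 9 without PD-1hi replicate 1, 11 without PD-1hi replicate 4 or PD-1int replicate 3, 13 without PD-1int replicate 4, 18 without PD-1hi replicate 2, and 19 with median centring.

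Of 47 DNA replication genes, 44 rose in PD-1hi against naive, 42 in PD-1int and 33 in memory, where 13.4%, 11.9% and 6.7% of all genes rose. None fell, where 13.7%, 10.8% and 5.02% of all genes fell. Between PD-1hi and PD-1int 1 of them rose, where 1.37% of all genes rose: Rrm1 (0.81 ± 0.20, limma adjusted p = 0.0277), a subunit of the enzyme that makes deoxynucleotides, and 0 to 3 rose with 1 array left out, none without PD-1hi replicate 1 or 4 or PD-1int replicate 1 or 4. In the fit of the 8 arrays alone 6 of the 47 rose, where 1.31% of all genes rose. The median difference of the replication genes in this comparison was 0.33, against 0.79 for the mitosis genes, and all 47 differences were positive; whether the lists differ was not tested. In memory 43, 7, 2 and 45 of the 47 replication genes lay above the memory mean in replicates 1 to 4, as did 47.4%, 53.2%, 52.8% and 46.6% of all genes.

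Among the regulators of these genes, Foxm1 and Mybl2, which activate late cell-cycle promoters, were higher in both effector subsets. Foxm1 had 8.90, 8.70, 8.25 and 8.85 in PD-1hi, 7.72, 8.26, 8.06 and 8.07 in PD-1int, 7.61, 6.96, 6.49 and 7.50 in memory, against 6.59, 6.97, 6.64 and 6.57 in naive. It rose by 1.98 ± 0.20 in PD-1hi and 1.33 ± 0.20 in PD-1int against naive, while memory (0.44 ± 0.20) overlapped naive and did not pass (limma adjusted p = 0.205). Mybl2 had 9.52, 9.27, 9.15 and 9.31 in PD-1hi, 8.54, 9.28, 8.65 and 8.74 in PD-1int, 8.19, 7.75, 7.67 and 8.12 in memory, against 7.74, 7.53, 7.81 and 7.72 in naive. It rose by 1.61 ± 0.15 and 1.10 ± 0.15 in PD-1hi and PD-1int, and memory (0.23 ± 0.15, adjusted p = 0.406) did not pass. Between PD-1hi and PD-1int neither Foxm1 (0.65 ± 0.20, adjusted p = 0.101) nor Mybl2 (0.51 ± 0.15, adjusted p = 0.0707) passed. E2f1, which activates replication genes, rose in all 3 subsets, by 0.93 ± 0.13 in PD-1hi, 0.72 ± 0.13 in PD-1int and 0.61 ± 0.13 in memory. Of the 23 cell-cycle transcription factors and MuvB subunits measured, 17 rose and 1 fell in PD-1hi against naive, 14 rose and 1 fell in PD-1int, and 7 rose in memory. The shares of all genes that rose and fell were 13.4% and 13.7% in PD-1hi, 11.9% and 10.8% in PD-1int, and 6.7% and 5.02% in memory.

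Markers of other cells were measured beside these results. The 18 B-cell and CLL-cell genes, which would mark carried-over leukemia cells, had array means between 6.04 and 6.24 in PD-1hi, 6.12 and 6.36 in PD-1int, 6.46 and 6.63 in memory, and 6.38 and 6.50 in naive. Of them, 1 (Cd22) rose and 4 (Ighm, Cd79b, Bank1 and Ralgps2) fell in PD-1hi against naive, where 13.4% of all genes rose and 13.7% fell. Cd22, a receptor that restrains B-cell signalling, differed from naive by 0.84 ± 0.12 in PD-1hi, 1.74 ± 0.12 in PD-1int and 3.22 ± 0.12 in memory, the largest rise of the list, and in PD-1hi against PD-1int it was the gene of the list that passed, with -0.90 ± 0.12. Ms4a1, which encodes CD20, and Cd79a, a chain of the B-cell receptor complex, passed in none of the 6 comparisons. The 18 myeloid and dendritic-cell genes lay between 6.53 and 6.64 in PD-1hi, 6.52 and 6.65 in PD-1int, 6.17 and 6.28 in memory, and 6.15 and 6.30 in naive. Cd68 (3.05 ± 0.17), Itgam (1.03 ± 0.20) and Cst3 (0.57 ± 0.07) rose in PD-1hi against naive and the other 15 did not pass. Between PD-1hi and PD-1int no gene of that list passed. The means of 9 CD4 and regulatory T-cell genes lay between 6.90 and 7.03 in PD-1hi, 6.74 and 6.82 in PD-1int, 6.50 and 6.55 in memory, and 6.64 and 6.78 in naive, where Ctla4 (2.86 ± 0.13) and Zbtb7b (0.28 ± 0.09) rose and St8sia6 (-0.55 ± 0.11) fell in PD-1hi against naive. Of these 9 genes, Ctla4, an inhibitory receptor of activated and regulatory T cells (0.97 ± 0.13, limma adjusted p = 1.79e-04), and Ikzf4 (0.71 ± 0.14, adjusted p = 0.00833) also rose in PD-1hi against PD-1int, along with the mitosis genes. The 7 genes of natural killer and innate-like T cells lay between 6.46 and 6.66 in PD-1hi, 6.50 and 6.59 in PD-1int, 6.61 and 6.77 in memory, and 6.40 and 6.51 in naive, and Cd160 rose and Cd1d1 fell in PD-1hi against naive. The 11 erythroid and platelet genes overlapped in all 4 subsets, between 6.53 and 6.78 in PD-1hi, 6.43 and 6.78 in PD-1int, 6.57 and 6.63 in memory, and 6.52 and 6.66 in naive, and Ppbp rose and Gata1 fell in PD-1hi against naive. The files carry no detection calls, so no marker can be called absent, and the part of other cells in these differences was not tested.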

How the data were processed

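RNA of sorted CD8 T cells was extracted with a micro-scale kit, amplified, labelled with biotin and hybridised to Affymetrix Mouse Gene 2.0 ST arrays, 16 in all, per the labels' protocols. The authors deposited 1 log2 expression value per probe set and array; the log base was read from their range, 2.35 to 14.1. Affymetrix Power Tools is named in the submitters' processing notes; how probes were summarised and normalized is not stated there. The number of arrays limits the precision, and without detection calls log2 differences of dim genes may be compressed.

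Of 41345 probe sets, 23521 had 1 gene symbol in the platform annotation, 1814 several and 16010 none; those with 1 symbol were used. For the 1082 genes with several probe sets the one with the highest mean was kept, which left 22180 genes, without a filter. All 16 arrays were fitted with limma 3.58.1 in R 4.3.3 (lmFit on subset means without a block, then eBayes), and the 6 pairs of subsets were compared with Benjamini-Hochberg adjustment over all genes at a threshold of 0.05. The fit was tested on simulated data with independent noise for each gene and an SD per gene shared by all subsets. The mitosis genes varied together and most in memory, so that test does not bear on their counts. Promoter letters were counted in RefSeq promoters of 300 bases with Python 3.11.15.

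The mitosis genes, the related lists and the marker lists were chosen with earlier results of these data known. Full values were given for the 3 mitosis genes with the smallest adjusted p in each comparison, for genes that did not pass, and for at least 1 gene of each role; the 27 genes that did not pass in PD-1hi against PD-1int are given by their range and in a plot. Of the related lists, up to 4 genes with the smallest adjusted p, Foxm1, Mybl2 and E2f1 were named, and of the marker lists Ms4a1, Cd79a and the genes that passed in PD-1hi against naive or PD-1int; other genes named were chosen after their values were seen.

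The alternatives were to drop each array in turn, weight the arrays, block on the replicate number, fit the 8 arrays compared alone, leave out the 40% dimmest genes, average the probe sets of a gene, normalize by quantiles, centre on medians, and run eBayes with its trend and robust options. The counts of other mitosis and DNA replication genes under these alternatives were added after seeing the data.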

Additional observations from a re-analysis of the deposited data

Results flagged for a closer look

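In 5 of the 164 sets of 4 arrays checked, 1 array stood far from the other 3, with a gap to the nearest of them above Dixon's critical value for 4 samples; chance gives such a gap in about 1 of 20 sets. In PD-1hi replicate 1 the kinesin genes Kif20a and Kif2c were high, at 9.26 against 8.83 to 8.86 and at 8.87 against 8.39 to 8.42 in the other PD-1hi arrays. The spindle gene Tpx2 was low in PD-1int replicate 1, at 8.71 against 9.20 to 9.24. Among naive arrays, Kif11 was low in replicate 3, at 5.61 against 5.92 to 5.93, and Melk was high in replicate 2, at 6.40 against 5.85 to 5.92.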

How the results depend on the processing

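Of the 40 mitosis genes, 40 rose in PD-1hi and in PD-1int against naive and 39 in PD-1hi against memory under every alternative run. With 1 array left out, 28 to 34 rose in memory against naive (33 in the fit of all arrays), 32 to 39 in PD-1int against memory (38) and 6 to 18 in PD-1hi against PD-1int (13), where the fit of only the 8 arrays compared gave 29; the median standard error over the 40 genes was 0.139 in that fit and 0.227 in the fit of all arrays. With 1 array left out, the SD of the array means lay between 0.0924 and 0.199 in PD-1hi, 0.105 and 0.265 in PD-1int, 0.473 and 0.578 in memory and 0.0503 and 0.0723 in naive; it was 0.0987 in naive with median centring, and the cause was not tested. The sign of Ndc80 in memory against naive turned to 0.0316 without memory replicate 3 (range -0.399 to 0.0316 with 1 array left out). That of Racgap1 in PD-1hi against PD-1int turned to 0.0038 with array weights, 0.0203 without PD-1hi replicate 2, 0.0054 without PD-1int replicate 2 and 0.01 without PD-1int replicate 4 (range -0.0546 to 0.0203 with 1 array left out); neither gene passed there. The replicate numbers, shared by arrays with the same AT number in their titles, were not taken to pair the arrays: of 24 same-numbered pairs from different subsets 2 had a correlation of deviations over 0.1, the range was -0.0478 to 0.151, and 13 correlated best with their own number, where 6 would if the numbers carried nothing, a hint from the data that some pairing exists. With the replicate number as a block, 40, 40 and 33 genes rose in PD-1hi, PD-1int and memory against naive, 39 and 37 in PD-1hi and PD-1int against memory, and 16 in PD-1hi against PD-1int. The share of all genes that rose is not given for the fits with 1 array left out or with a block. Counts of any list in those fits therefore stand without a background. The DNA replication genes that rose in PD-1int against memory numbered 26 of 47, where 8.49% of all genes rose. They numbered 16 without memory replicate 2 and 17 without memory replicate 3.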

Other observations

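Genes that hold back the cell cycle moved in both directions. Of 14 CDK inhibitors and antiproliferative genes measured, 4 rose and 5 fell in PD-1hi against naive, 4 rose and 5 fell in PD-1int, and 1 rose and 4 fell in memory (limma, as above). Of all genes, 13.4% rose and 13.7% fell in PD-1hi, 11.9% and 10.8% in PD-1int, and 6.7% and 5.02% in memory. Cdkn1a, which encodes the CDK inhibitor p21, had log2 values of 9.88, 8.90, 9.74 and 9.93 in PD-1hi, 8.69, 8.68, 8.93 and 8.74 in PD-1int, 6.99, 7.19, 7.05 and 6.96 in memory, against 6.85, 7.06, 6.78 and 6.69 in naive. It rose in the subsets with the most mitosis transcript, by 2.77 ± 0.17 in PD-1hi and 1.92 ± 0.17 in PD-1int against naive. Cdkn2c, which encodes the Cdk4 and Cdk6 inhibitor p18, rose by 2.32 ± 0.14 in PD-1hi and 1.80 ± 0.14 in PD-1int against naive. Slfn2, a gene tied to T-cell quiescence, and Klf2, a transcription factor of resting T cells, fell in PD-1hi against naive by 1.04 ± 0.11 and 0.83 ± 0.10.

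The subunits of the anaphase-promoting complex, which ends mitosis, and its activator Fzr1 had small differences. Of these 15 genes, 6 rose and 2 fell in PD-1hi against naive, 5 rose and 1 fell in PD-1int, and 2 rose and none fell in memory, with medians of 0.21, 0.16 and 0.10. Among all genes 13.4% rose and 13.7% fell in PD-1hi, 11.9% and 10.8% in PD-1int, and 6.7% and 5.02% in memory. Fzr1, which works after mitosis and in resting cells, had the largest difference of the list in PD-1hi, 0.79 ± 0.10.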
